A study of Mus musculus with 2 samples.

Results

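The myosin light chains described here are 9 annotated mouse genes. They comprise the essential light chains Myl1, Myl3, Myl4 and Myl6 and the regulatory light chains Myl2, Myl7, Myl9, Myl12a and Myl12b. They were taken by gene name from the read counts of a long-read RNA sequencing study of heart, and all 9 had reads in both libraries, out of 15031 annotated genes with reads. The tissue was heart of female mice of the F1 hybrid strain B6CASTF1/J aged 18 to 20 months, with no mutation or treatment named. Replicate 1 and replicate 2 were each prepared from 2 µg of RNA with control RNAs added. They have their own biosample entries but a common donor entry, so the sources used here do not tell whether they came from different animals, and the region of the heart taken for each is not given. The study therefore holds 1 group and no contrast between conditions. Every SD given after ± is over these 2 libraries (n = 2), and the tests set the difference of the 2 libraries against counting error only.

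Myosin light chains wrap around the neck of the myosin heavy chain, where each myosin head carries an essential and a regulatory light chain. The essential chain stiffens the lever arm and can contact actin, and the regulatory chain is phosphorylated by myosin light chain kinases, which tunes contraction in heart and switches it on in smooth muscle. In the adult mouse heart Myl2 and Myl3 are the ventricular regulatory and essential chains, and Myl7 and Myl4 are their atrial counterparts. Myl1 is the essential chain of fast skeletal muscle, while Myl6 (essential) and Myl9, Myl12a and Myl12b (regulatory) serve smooth muscle and non-muscle myosin.

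The libraries held 630211 mouse reads in replicate 1 and 664319 in replicate 2. After TMM scaling, 1 read stood for 1.61 counts per 1000000 scaled mouse reads (CPM) in replicate 1 and 1.48 CPM in replicate 2. All 5 heart muscle markers had reads, with a summed level of 19054 CPM in replicate 1 and 17162 CPM in replicate 2, of which Myh6, the alpha myosin heavy chain, made up 14534 and 12896 CPM. The libraries differed in haemoglobin and other erythroid RNA, with 30391 CPM in replicate 1 and 11784 CPM in replicate 2 over 5 genes, all 5 called higher in replicate 1 at an adjusted p under 0.05 by the exact binomial test used for the light chains below. They also differed in fat RNA. The list of 4 epicardial and fat genes summed to 56.3 CPM in replicate 1 and 533 CPM in replicate 2. The fat genes Cfd and Adipoq were called higher in replicate 2. The epicardial Upk3b (8 reads in replicate 1 and 13 in replicate 2) and Msln (4 and 7) were not called. Of all genes tested 0.861% were called higher in replicate 1 and 1.21% higher in replicate 2.

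The members fall into families by the layout of their coding exons. This matters below because some short models, as listed, begin in the same exon in related genes. In the annotation (GENCODE M21, mm10) Myl3 and Myl4 share coding exons of 28, 150, 174, 78 and 26 bases, and Myl1 and Myl6 share exons of 144, 174, 78 and 26 bases. Myl2 and Myl7 share exons of 76, 105, 79 and 49 bases, and Myl9, Myl12a and Myl12b share a split into 184, 162 and 170 coding bases. Coding sequences were 53.9% to 73.5% identical over the 6 pairs of essential chains and 58.7% to 96.5% identical over the 10 pairs of regulatory chains. Between an essential and a regulatory chain identity was 41.4% to 47.4% over 20 pairs. Myl3 and Myl4 matched at 72.9% of aligned coding positions, Myl2 and Myl7 at 61.1%. Myl12a and Myl12b matched at 498 of 516 coding bases (96.5%), so a read that covers little beyond the coding part could be placed on either gene. Their counts may therefore be less certain than those of the other members, which was not tested.

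The 4-exon models of Myl3 and Myl4 begin, as listed, in the 174-base exon 4. The exon joint before it is shown here as 36 bases of the annotated transcripts. The last 15 bases of exon 3 are in lower case and the first 21 bases of exon 4 in capitals. The same joint is given for Myl1 and Myl6, and for Myl2 and Myl7 the joint before the 79-base exon 5, where their 3-exon models began.
Myl3, exon 4 at chr9:110767908-110768081 (+): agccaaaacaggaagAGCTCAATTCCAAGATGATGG
Myl4, exon 4 at chr11:104584439-104584612 (+): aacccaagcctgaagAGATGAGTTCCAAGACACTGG
Myl1, exon 4 at chr1:66926534-66926707 (-): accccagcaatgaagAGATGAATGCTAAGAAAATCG
Myl6, exon 4 at chr10:128492229-128492402 (-): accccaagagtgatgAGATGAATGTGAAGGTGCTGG
Myl2, exon 5 at chr5:122104827-122104905 (+): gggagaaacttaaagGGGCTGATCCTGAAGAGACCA
Myl7, exon 5 at chr11:5897320-5897398 (-): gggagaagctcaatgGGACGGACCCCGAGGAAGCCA
Over the whole 174-base exon Myl3 and Myl4 were identical at 140 bases (80.5%), and over the 79-base exon Myl2 and Myl7 were identical at 46 bases (58.2%).

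The ventricular chains carried most of the light chain reads. Myl3 (chr9:110741861-110769798, + strand) had 4568 reads in each library, or 7351 CPM in replicate 1 and 6780 CPM in replicate 2, and averaged 7066 ± 403 CPM. Myl2 (chr5:122100951-122113472, + strand) had 3291 reads in replicate 1 and 3157 in replicate 2, or 5296 and 4686 CPM, and averaged 4991 ± 431 CPM. Both genes were slightly higher in replicate 1. Myl2 was 1.13-fold higher there (95% interval 1.08 to 1.19, exact binomial test with Benjamini-Hochberg adjustment over all genes, adjusted p = 9.73e-05). Myl3 was 1.08-fold higher in replicate 1 (1.04 to 1.13, adjusted p = 0.00807), but with total mouse reads as the library size the same gene had an adjusted p of 0.262. Ratios of this size are common: of 828 genes with at least 200 reads, 38.2% had a ratio as far from 1 as that of Myl2 and 56.2% as far as that of Myl3.

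The atrial chains made the large difference between the libraries. Myl4 (chr11:104550663-104595753, + strand) had 274 reads in replicate 1 and 803 in replicate 2, or 441 and 1192 CPM, and averaged 816 ± 531 CPM. Myl7 (chr11:5896637-5898782, - strand) had 170 reads in replicate 1 and 431 in replicate 2, or 274 and 640 CPM, and averaged 457 ± 259 CPM. Both atrial genes were low in replicate 1 and high in replicate 2, where the ventricular pair was slightly the lower. The ratio of replicate 1 over replicate 2 was 0.370 for Myl4 (0.321 to 0.425, adjusted p = 4.32e-49) and 0.428 for Myl7 (0.356 to 0.512, adjusted p = 2.96e-20). Read the other way, as replicate 2 over replicate 1, Myl4 was 2.70-fold and Myl7 2.34-fold higher in replicate 2. Among the 828 genes with at least 200 reads, 14 (1.69%) had a ratio as far from 1 as that of Myl4 and 19 (2.29%) as far as that of Myl7.

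In all, 4 of the 9 members, every one of which passed the minimum of 10 reads, were called different, 2 in each direction. Of all 7545 genes tested 2.07% were called, with 0.861% higher in replicate 1 and 1.21% higher in replicate 2, and of the 828 genes with at least 200 reads 9.78% were called. The remaining 5 members did not pass the test, and their libraries are described below. In bulk tissue, fewer cells of a type and less RNA per cell cannot be told apart.

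**Figure D1:**
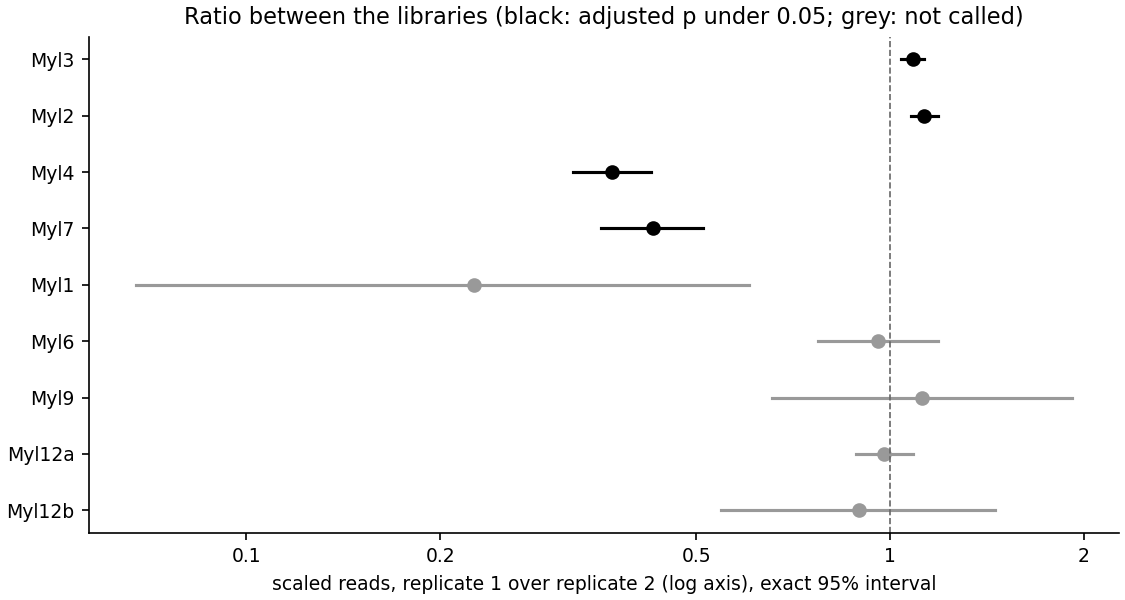
Ratio of scaled reads, replicate 1 over replicate 2 (log axis), for each of the 9 genes, with exact 95% intervals that cover counting error only. Black points are genes with an adjusted p under 0.05: Myl3 and Myl2 lie just above 1, and Myl4 and Myl7 lie at 0.370 and 0.428.

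The summed level of the 9 genes was close in the 2 libraries while its makeup differed. The genes reached 14901 CPM in replicate 1, against 14904 CPM in replicate 2, or 1.49% of scaled mouse reads in each. That closeness rests on the TMM scaling, since with total mouse reads as the library size the sums were 14693 and 15115 CPM. The ventricular pair supplied 12647 CPM in replicate 1 and 11467 CPM in replicate 2, which was 84.9% and 76.9% of the sum. The atrial pair supplied 714 CPM in replicate 1 and 1832 CPM in replicate 2, or 4.79% and 12.3% of the sum. These levels depend on the incomplete matches described below: with reads of known transcripts only, the atrial pair had 384 CPM in replicate 1 and 877 CPM in replicate 2, or 2.17% and 5.16% of the sum. On those reads Myl4 averaged 305 CPM, below Myl7 with 325 CPM.

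Within each chain the balance moved the same way, as a share of reads. Of the reads of the striated essential pair Myl3 and Myl4, Myl4 took 5.66% in replicate 1 (5.02% to 6.35%) and 14.95% in replicate 2 (14.0% to 15.9%). Of the reads of the regulatory pair Myl2 and Myl7, Myl7 took 4.91% in replicate 1 (4.22% to 5.69%) and 12.01% in replicate 2 (11.0% to 13.1%). The balance between the partners of 1 chamber differed much less. Myl3 took 58.1% of the reads of the ventricular pair in replicate 1 (57.0% to 59.2%) and 59.1% in replicate 2 (58.0% to 60.2%). Myl4 took 61.7% of the reads of the atrial pair in replicate 1 (57.0% to 66.3%) and 65.1% in replicate 2 (62.3% to 67.7%), and these intervals overlap. Shares of reads are not corrected for length and serve only to set the libraries side by side.

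Some other markers of the same chambers also differed between the libraries, in the direction of the light chains. Of all 7545 genes tested 1.21% were called higher in replicate 2 and 0.861% higher in replicate 1. Of the 828 genes with at least 200 reads 9.78% were called in either direction. Of the 9 atrial markers on the list, which hold Myl4 and Myl7, 8 were tested and 4 were called, all higher in replicate 2. Without the light chains 2 of 6 were called. These were Nppa, the atrial natriuretic peptide precursor, with 583 reads in replicate 1 and 1404 in replicate 2, and Sln, the sarcolipin that regulates the atrial calcium pump, with 95 and 271 reads. Dkk3 (52 and 93 reads), Mybphl (17 and 40), Kcnj3 (11 and 12) and Tbx5 (5 and 10) did not pass. The atrial markers without the light chains summed to 1228 CPM in replicate 1 and 2718 CPM in replicate 2, and Bmp10 had 0 and 1 read. Of the 7 ventricular markers 6 were tested and 4 were called, all higher in replicate 1, with Hey2 at 0 reads in both libraries. Without the light chains these were Fhl2, with 648 reads in replicate 1 and 535 in replicate 2, and Myh7, the beta heavy chain, with 128 and 46 reads. Irx4 (16 and 7 reads) and Lbh (39 and 42) did not pass. The ventricular markers without the light chains summed to 1337 CPM in replicate 1 and 935 CPM in replicate 2. The part of these markers, and of the erythroid and fat RNA given above, in the light chain differences was not tested.

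The 5 genes whose ratio between the libraries lay nearest to the mean of Myl4 and Myl7 (log2 ratio of -1.33, among genes with at least 200 reads, over 2 libraries) were Sln, Thrsp, Cidea, Nppa and Cebpb. Their log2 ratios differed from that mean by 0.06 for Sln, 0.13 for Thrsp, 0.15 for Cidea, 0.18 for Nppa and 0.37 for Cebpb. With only 2 libraries this likeness is a description of 1 difference. Sln and Nppa are on the atrial list, whereas Thrsp and Cidea are best known from fat cells and Cebpb encodes a transcription factor.

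The order of the genes depended on whether length was taken into account, and which scale reflects molecules better was not tested. In plain CPM Myl3 lay 1.42-fold above Myl2 without overlap of the ranges. Myl12a (1176 CPM) lay above Myl4 (816 CPM) with overlap, and Myl12b above Myl9. The other scale was CPM per kilobase of the read-weighted model length, which short models reduce (547 bases for Myl4, against 900 for complete Myl4-202). On that scale Myl3 led with 8257 ± 471, followed by Myl2 with 7769 ± 671, and the ranges of these neighbours overlapped. Myl4 came next with 1493 ± 971 and overlapped Myl12a with 1028 ± 15.8. Myl7 followed with 595 ± 338, then Myl6 with 317 ± 9.96, Myl9 with 45.3 ± 3.63, Myl12b with 32.6 ± 2.57 and Myl1 with 29.6 ± 26.4. Myl12b and Myl1 overlapped as well, while the other neighbours in this order did not. Model lengths are those listed in the tables, and they can differ between libraries. The 6-exon model of Myl7, for example, was listed at 1988 bases in replicate 1 and at 811 bases in replicate 2.

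**Figure D2:**
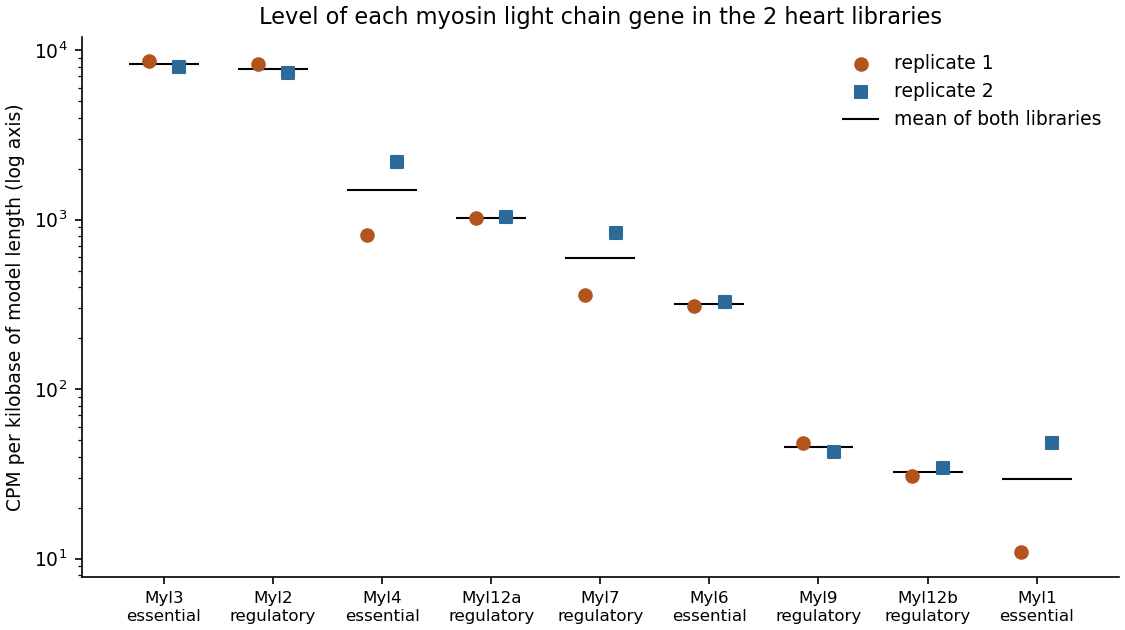
Level of each gene in CPM per kilobase of model length (log axis), replicate 1 (circles) left of replicate 2 (squares), with a line at the mean of both. The ventricular chains Myl3 and Myl2 lie highest, and the widest gaps between libraries are those of Myl1, Myl4 and Myl7.

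None of the smooth muscle and non-muscle chains was called different between the libraries. Myl12a (chr17:70993656-71002878, - strand), a regulatory chain of non-muscle myosin, had 723 reads in replicate 1 and 801 in replicate 2, or 1163 and 1189 CPM. Its close relative Myl12b (chr17:70973133-70990890, - strand) had 33 and 40 reads, or 53.1 and 59.4 CPM. Myl6 (chr10:128490860-128494145, - strand), the essential chain of non-muscle and smooth muscle myosin, had 165 reads in replicate 1 and 187 in replicate 2, or 266 and 278 CPM. Myl9 (chr2:156775420-156781658, + strand), the main smooth muscle regulatory chain, had 31 and 30 reads, or 49.9 CPM in replicate 1 and 44.5 CPM in replicate 2.

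For these 4 genes the ratio of replicate 1 over replicate 2 lay between 0.894 and 1.12, and the exact binomial test gave adjusted p-values of 0.973 for Myl12b and 1 for the others. The depth set wide limits for the weaker ones: the 95% interval of the ratio ran from 0.884 to 1.08 for Myl12a and from 0.771 to 1.19 for Myl6. It ran from 0.656 to 1.92 for Myl9 and from 0.547 to 1.45 for Myl12b, so that differences of more than 1.5-fold lie within both intervals and were not detectable at this depth. Of 8 smooth muscle and pericyte markers 7 were tested and 1 was called. Of all genes tested 2.07% were called, and of those with at least 200 reads 9.78%. The called marker was Pln, a regulator of the calcium pump that heart muscle itself makes. It had 9499 reads in replicate 1 and 9718 in replicate 2, or 15286 and 14425 CPM after scaling. Pln was thus called higher in replicate 1 (1.06-fold, exact binomial test, adjusted p = 0.00441). Acta2 (50 and 43 reads) and Tagln (24 and 25 reads) did not pass.

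Myl1 was the scarcest member. Lying at chr1:66924295-66945404 (- strand), it had 5 reads in replicate 1 and 24 in replicate 2, or 8.05 and 35.6 CPM. The ratio of replicate 1 over replicate 2 was 0.226 (0.0673 to 0.604) and the adjusted p of 0.0522 missed the threshold. The call depends on the processing: the adjusted p was 0.0340 with total mouse reads as the library size, 0.0383 without the genomic class and 0.00561 with known transcripts only, where the log2 ratio was -3.00 against -2.04 above. The skeletal muscle list held little else: Myh2, Myh4, Tnnt3 and Pvalb were at 0 reads in both libraries, and the list without Myl1 summed to 3.22 CPM in replicate 1 and 7.42 CPM in replicate 2. Myl1 has a long and a short form with separate starts. The first intron of the short form, Myl1-202, was found in 2 of 5 reads in replicate 1 and 21 of 24 in replicate 2, and 1 further read of replicate 2 had a first intron with an unannotated splice site. The first intron of the long form Myl1-201 was seen in 0 of 29 reads. Incomplete matches without the first exons, 3 reads in replicate 1 and 2 in replicate 2, could show neither form.

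Each read in the tables belongs to a transcript model with a class. Known reads match an annotated transcript, incomplete matches, as classed in the tables, mostly cover a part of the exons of an annotated transcript and include single-exon pieces and a few models with an unannotated intron, and new models hold either a new combination of annotated splice sites or a new splice site. The genomic class held only single-exon models for these genes. Over the 9 members 76.5% of reads were known, 20.0% incomplete matches and 1.47% genomic, while new combinations made up 0.497% and models with a new splice site 1.51%.

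Of all mouse reads, 66.6% in replicate 1 and 65.1% in replicate 2 were known, 14.9% and 17.2% incomplete matches, and 8.97% and 7.92% genomic. The members differed widely from each other in these classes. The atrial chains had the most incomplete matches: without the genomic class they made up 73.5% of the reads of Myl4 (70.8% to 76.2%) and 51.4% of those of Myl7 (47.3% to 55.5%). The share was 19.5% for Myl3, 14.2% for Myl2, 12.1% for Myl9, 11.6% for Myl6 and 2.11% for Myl12a, and Myl12b had 0 among 58 reads, which allows up to 6.16%. Over 2568 genes with at least 50 such reads the median was 5.63%, and 76 genes (2.96%) had a share as high as that of Myl4 and 165 (6.43%) as high as that of Myl7.

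**Figure D3:**
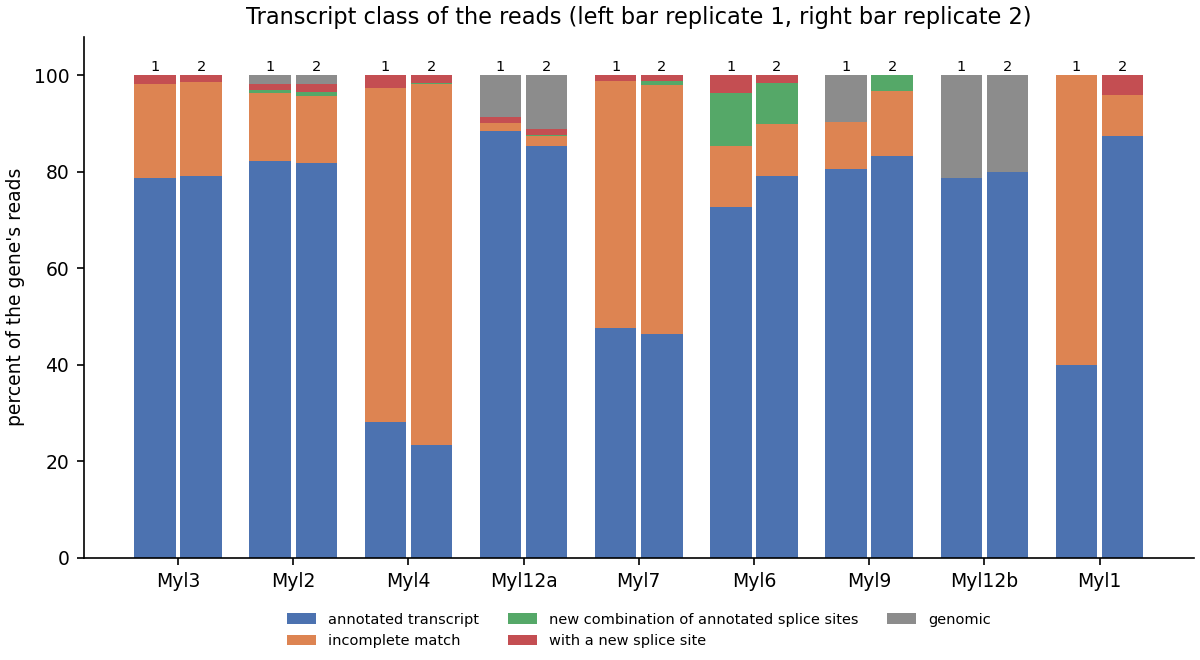
Percent of each gene's reads in each transcript class, replicate 1 (left bar) and replicate 2 (right bar). Incomplete matches make up most of the reads of Myl4 and about as many as the annotated transcript in Myl7, in both libraries, and the genomic class is widest in Myl12b in both libraries.

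The incomplete matches of Myl4 were nearly all of 1 kind. A 4-exon model that begins in exon 4 held 178 of 274 reads in replicate 1 (65.0%, 59.0% to 70.6%) and 587 of 803 in replicate 2 (73.1%, 69.9% to 76.1%). It was the leading model of the gene, ahead of the complete annotated transcript Myl4-202 with 77 and 187 reads and of a 3-exon model with 8 and 9 reads. The short model lacks exons 1 to 3, which hold the start codon and the N-terminal extension typical of striated essential chains. Introns 1, 2 and 3 of Myl4-202 were spliced in 26.3%, 25.6% and 26.5% of reads over both libraries, and intron 4 in 97.8%. Here and below, the base of such shares includes reads whose model begins 3′ of the intron, as 765 of the 1077 Myl4 reads did in exon 4. A low share therefore does not mean that the intron was kept. The annotated transcripts Myl4-201, Myl4-203 and Myl4-207 had 0 of 1077 reads. Of these reads 792 were incomplete matches, which by their class count for no annotated transcript, so the 0 sets no bound over all reads.

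Myl3, with the same exon layout, had the same short form at a lower share. Its 4-exon model, also beginning in the 174-base exon, held 588 reads in replicate 1 and 603 in replicate 2, against 3589 and 3615 reads of the complete Myl3-201. Introns 1 to 3 of Myl3 were spliced in 80.6%, 80.9% and 82.6% of reads over both libraries, and intron 4 in 96.1%. The remaining leading models of Myl3 were a single-exon model with 126 and 129 reads, a 5-exon model with 81 and 64 and a 3-exon model with 34 and 32. A 7-exon model whose last intron ends 4 bases further downstream had 23 and 30 reads.

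In the regulatory pair the step lay elsewhere. Myl7 intron 1, which follows a 22-base first exon ending with the start codon, was spliced in 47.9% of reads over both libraries, while introns 2 to 4 were spliced in 85.5% to 87.2% and intron 6 in 99.5%. Complete Myl7-201 models had 81 reads in replicate 1 and 200 in replicate 2. A 6-exon model had 70 and 157 reads, a 3-exon model beginning in the 79-base exon 13 and 44, and a 2-exon model 2 and 12. The first exon of the 6-exon model was listed at 357 bases in replicate 1. Exon 1 (22 bases), intron 1 (221) and exon 2 (114) together span that length. As listed, this model keeps intron 1, and it held 227 of the 309 incomplete-match reads of Myl7. Among reads with intron 2 spliced, intron 1 was spliced in 285 of 514 (55.4%). In Myl2 the spliced share was 99.8% at intron 6, 98.8% at intron 5, 90.5% at intron 4 and 82.5% at intron 1, with no step as large as that of Myl7.

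Complete Myl2-201 had 2650 reads in replicate 1 and 2538 in replicate 2. The 3-exon model of Myl2, beginning in the same 79-base exon as that of Myl7, had 274 and 253 reads. Models of 5 and 6 exons had 58 and 49 and 51 and 52 reads, and the annotated Myl2-210 had 40 and 35. Where these models begin is known only as listed: of 195 incomplete or new models of the members, 151 (77.4%) had a 5′ end and 190 (97.4%) a 3′ end exactly on an annotated exon boundary. The listed ends may therefore not be those of the reads, and a first intron that was kept and a short first exon that was missed cannot be told apart from the tables.

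**Figure D4:**
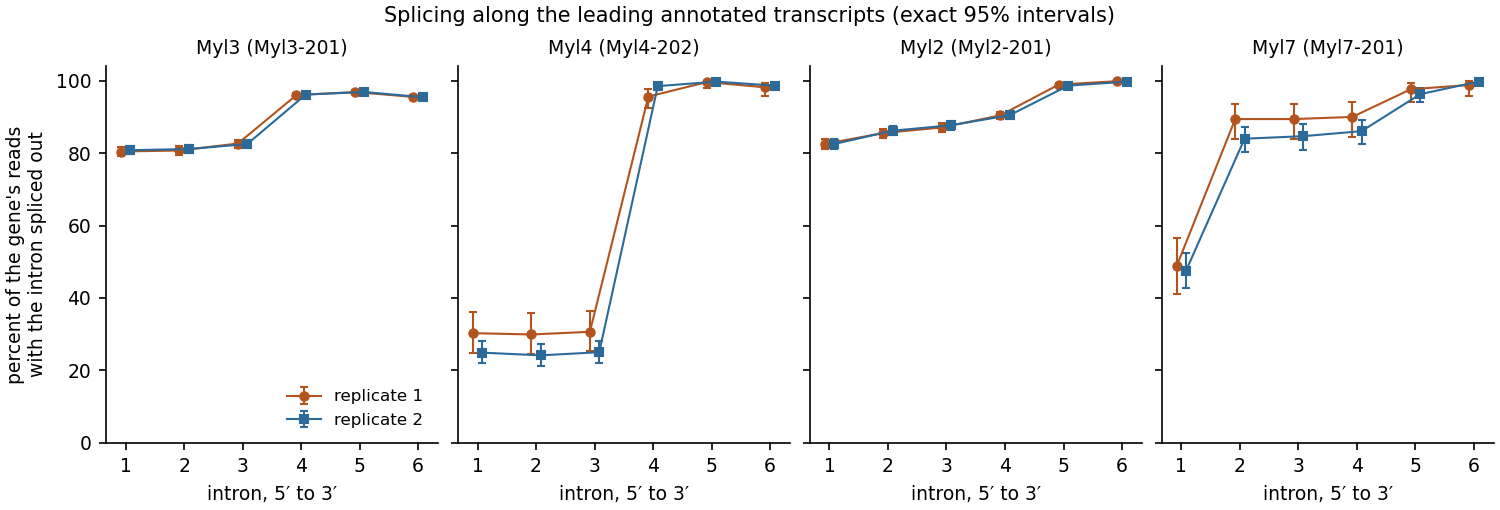
Percent of each gene's reads, without the genomic class, in which each intron of the leading annotated transcript is spliced out, from intron 1 (5′) to intron 6 (3′), with exact 95% intervals. Myl4 steps up between introns 3 and 4 and Myl7 between introns 1 and 2, in both libraries. Reads whose model begins 3′ of an intron stay in the base, so a low value does not mean a kept intron.

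**Figure D5:**
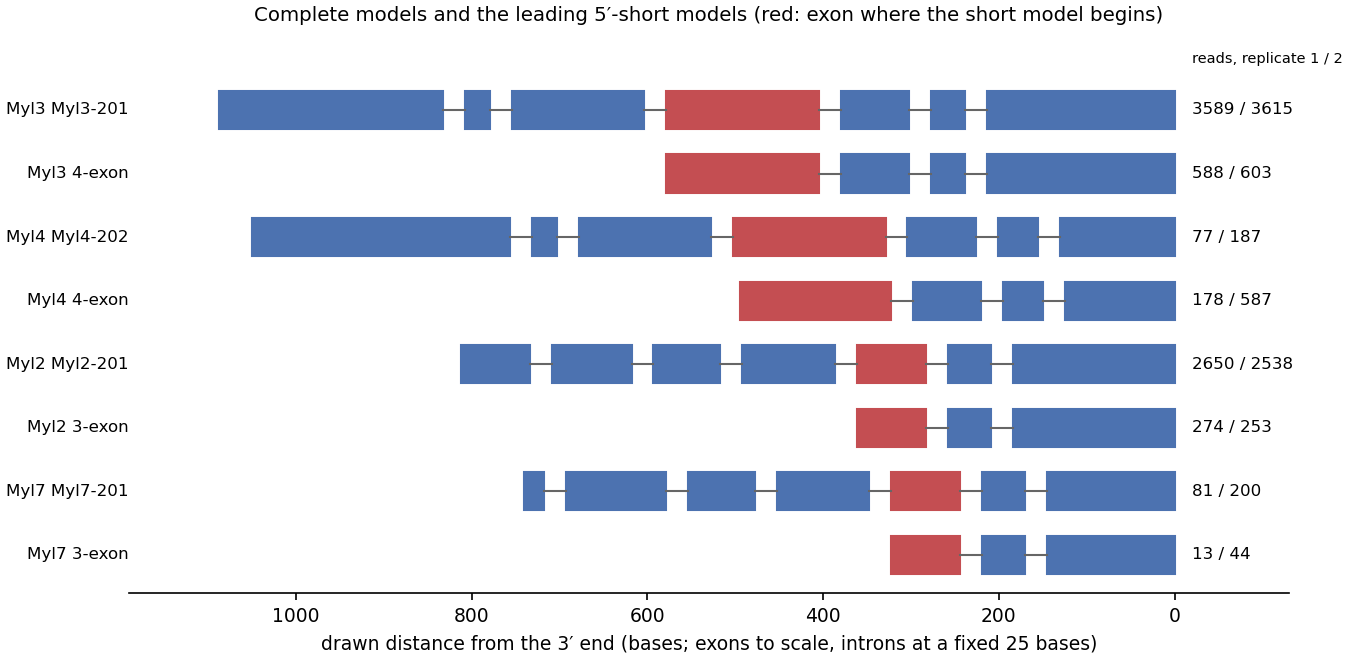
Exons of the complete models and of the short models that begin in the 174-base exon (Myl3, Myl4) or the 79-base exon (Myl2, Myl7), aligned at the 3′ end and drawn to scale with introns at a fixed width. Reads of each model stand at the right, replicate 1 before replicate 2: the short model outnumbers the complete one in Myl4 but not in the other 3 genes.

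No member was called for a difference in its leading model between the libraries. Leading shares were tested in 8 members by Fisher's exact test with Benjamini-Hochberg adjustment over 4223 genes, of which 1.73% were called, against 0 of the 8 members. The nearest was Myl4, with an unadjusted p of 0.0110 and an adjusted p of 0.336, and it was the only 1 of the 8 with an unadjusted p under 0.05. For the rest the adjusted p was 1. The atrial chains were higher in replicate 2 in complete models and in incomplete matches alike. As replicate 2 over replicate 1, complete Myl4-202 was 2.24-fold (1.71 to 2.96) and the 4-exon Myl4 model 3.04-fold (2.57 to 3.62), and complete Myl7-201 was 2.28-fold (1.75 to 2.99) and the 6-exon Myl7 model 2.07-fold (1.55 to 2.78).

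Of 225 models of the 9 genes 105 were seen in both libraries. These 105 models held 99.3% of the reads in replicate 1 and 99.2% in replicate 2, while 103 models had 1 read. Models of the 2 new classes numbered 136 with 390 reads, and 42 of them were in both libraries. The new forms described next were chosen after their values were seen.

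In Myl3 the shifted last intron was found in 31 reads of replicate 1 and 41 of replicate 2 over all its models, or 0.679% and 0.898%. An intron 3 ending 2 bases downstream was found in 11 and 10 reads. In Myl2 intron 3 began 4 bases downstream in 9 and 7 reads, and a 76-base exon of the annotated Myl2-206 (chr5:122101406-122101481) was present in 9 and 7 reads. All these minor forms lay under 1% of their gene.

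Some Myl2 reads reached far upstream of the annotated gene. Exons before its annotated start were present in 17 of 3232 reads in replicate 1 (0.526%) and 35 of 3101 in replicate 2 (1.13%), in 26 models, of which 12 were seen in both libraries. The furthest began 7945 bases upstream. The main joint, with an intron at chr5:122096789-122101748 in 11 reads of replicate 1 and 23 of replicate 2, led to exon 2 of Myl2-201 and left out its first exon. RefSeq lists 2 Myl2 starts in the same region, 8227 and 7762 bases before the start of Myl2-201.

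Myl6 has an alternative 45-base exon (chr10:128491720-128491764) that is known to set non-muscle and smooth muscle forms apart by the last residues of the protein. The exon was included in 62 of 153 reads in replicate 1 (40.5%, 32.7% to 48.7%) and 56 of 165 in replicate 2 (33.9%, 26.8% to 41.7%). This difference did not pass Fisher's exact test (two-sided p = 0.246). Over both libraries 37.1% of reads (31.8% to 42.7%) included the exon. Among models, Myl6-201 without the exon led with 68 and 88 reads, Myl6-206 with the exon had 38 and 38, and a 3-exon model had 8 and 6.

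Both Myl6 forms end in 26 coding bases and a stop codon, printed here as 29 bases with the 14 that differ in capitals.
Myl6-206, exon included, chr10:128491736-128491764 (-): CATttgtGAggCATAtCctgTCGggGtga
Myl6-201, exon skipped, chr10:128491005-128491033 (-): AGCttgtCCggATGGtGctgAATggCtga
The 2 ends have the same length and differ in sequence only, and Myl6-201 has 453 coding bases in all. A further 20-base exon, annotated in Myl6-210 (chr10:128493334-128493353), was present in 13 of 165 reads in replicate 1 and 17 of 187 in replicate 2. Among spliced models with this 20-base exon 25 of 29 reads included the alternative exon (86.2%, 68.3% to 96.1%), against 93 of 289 without it (32.2%, 26.8% to 37.9%), a pairing noticed after the values were seen. The intronless annotated Myl6-209 had 9 reads in replicate 1 and 20 in replicate 2.

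Myl12a was read mainly from 2 starts, while the first intron of the annotated Myl12a-202 was found in 1 read of each library. The first intron of Myl12a-201 was found in 474 of 661 reads in replicate 1 (71.7%, 68.1% to 75.1%) and 520 of 712 in replicate 2 (73.0%, 69.6% to 76.3%). That of Myl12a-206, which begins further upstream, was found in 167 reads in replicate 1 (25.3%) and 163 in replicate 2 (22.9%). The intervals of the libraries overlap for both starts. The gene also had a single-exon model of the genomic class with 62 reads in replicate 1, where it was listed at 450 bases wholly within annotated exons (chr17:70994119-70994568), and 89 reads in replicate 2, where it was listed at 666 bases. There were also incomplete models of 2 exons (7 and 7 reads) and 3 exons (5 and 9 reads).

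The complete transcript made up all spliced reads of Myl12b and most of those of Myl9. Myl12b-201 held 26 of 26 reads in replicate 1 and 32 of 32 in replicate 2. The other Myl12b reads were genomic, chiefly a 94-base model inside the last exon with 6 and 8 reads, in total 20.5% of the gene. Myl9-201 held 25 of 28 reads in replicate 1 and 25 of 30 in replicate 2. The genomic reads of Myl2, 57 and 55 in 1 model listed at 928 and 927 bases, lay over 184 exonic bases and otherwise outside annotated exons.

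RefSeq promoter windows (GRCm38.p6, 250 bases before to 50 after a start) were looked up for all members. The start of the leading transcript lay within 50 bases of the RefSeq start for Myl3, Myl6, Myl7 and Myl9. For Myl1, Myl2, Myl4, Myl12a and Myl12b the RefSeq start lay 374 to 26618 bases from it, so those windows do not cover the start of the leading transcript. The furthest upstream Myl2 start described above lies within the second of the 2 Myl2 windows. The windows of a ventricular and an atrial chain are shown, since these chains differed between the libraries in opposite directions. Capitals mark CArG boxes (the binding motif of serum response factor) and GATAA, searched on both strands.
Myl3, chr9:110763428-110763727 (+): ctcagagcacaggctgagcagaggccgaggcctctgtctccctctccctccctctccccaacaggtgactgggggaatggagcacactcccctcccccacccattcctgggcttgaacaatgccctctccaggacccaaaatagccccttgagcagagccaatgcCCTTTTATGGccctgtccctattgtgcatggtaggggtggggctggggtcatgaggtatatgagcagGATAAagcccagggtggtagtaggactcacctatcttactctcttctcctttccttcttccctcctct
Myl7, chr11:5898733-5899032 (-): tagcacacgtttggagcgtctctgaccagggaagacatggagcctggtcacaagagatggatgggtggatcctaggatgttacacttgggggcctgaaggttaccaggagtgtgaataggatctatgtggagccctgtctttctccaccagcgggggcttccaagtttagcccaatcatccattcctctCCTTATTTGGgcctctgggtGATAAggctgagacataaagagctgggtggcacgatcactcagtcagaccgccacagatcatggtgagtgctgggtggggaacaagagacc

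A CArG box stood in the windows of Myl3, Myl7 and Myl9 but not in the nearest window of Myl6, against 1.63% of 32851 RefSeq windows of this length. In Myl3 it began 85 bases before the RefSeq start and in Myl7 61 bases before it. GATAA was found in Myl3 and Myl7, against 25.4% of all windows, and CANNTG, searched as well and not capitalised, in all 4 windows, against 72.3%. TATAAA (13.6% of windows) and the MEF2 box (3.19%) were in none of the 4. Among the remaining windows, which do not cover the start of the leading transcript, TATAAA stood in those of Myl1 and of the second Myl2 start. A CArG box stood only in the other window of Myl6, and not in those of Myl1, Myl2, Myl4, Myl12a and Myl12b. The motifs did not overlap each other in the windows shown. A match is a run of letters and not a bound site, and the motifs were picked with the results known.

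Among the partners of the light chains that were listed, calls fell only on heavy chains. Of 13 myosin heavy chain genes 6 were tested and 2 were called, both higher in replicate 1. Of all 7545 genes tested 2.07% were called, and of the 828 genes with at least 200 reads 9.78%. Myh6 had 9032 reads in replicate 1 and 8688 in replicate 2 (1.13-fold, exact binomial test, adjusted p = 4.45e-13), and Myh7 had 128 and 46 reads (3.02-fold, adjusted p = 1.67e-09). The Myh6 ratio was close to that of Myl2, which 38.2% of genes with at least 200 reads matched or exceeded in distance from 1. The other abundant ones were the non-muscle Myh14 (26 and 29 reads), Myh7b (13 and 11) and Myh9 (11 and 9), and Myh2, Myh3, Myh4, Myh8 and Myh13 were at 0 reads. Of 17 annotated kinase and phosphatase genes, which set the phosphorylation of regulatory chains, 13 were tested and 0 were called.

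Among these, Mylk3, the cardiac light chain kinase, had 290 reads in replicate 1 and 392 in replicate 2 (exact binomial test, adjusted p = 0.136). Ppp1cb, the catalytic phosphatase subunit, had 116 and 122 reads, and Ppp1r14c, a phosphatase inhibitor, had 90 and 110. Of 9 thick filament partners 6 were tested and 0 were called, led by Myom1 (262 and 261), Mybpc3 (199 and 222), Myom2 (162 and 192), Ttn (56 and 61) and Mybphl (17 and 40). The median log2 ratio was 0.37 for the tested heavy chains, 0.04 for the kinase and phosphatase genes and -0.08 for the thick filament partners, against -0.000527 over all genes tested. Other light chain genes were all but silent: Mylpf had 1 read in each library, Mylip, a ligase that binds light chains, 4 and 5, and Myl6b and Myl10 had 0.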

How the data were processed

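Heart RNA of 1 group was measured in 2 long-read libraries. Values are raw read counts for each transcript model, as deposited by the authors. Per the file headers the models were built with TALON, and the notes deposited beside them name mm10 and GENCODE M21. For the aligner and the versions, nothing is given in the sources used here. Each library was annotated on its own, so models were matched here by identifier, intron chain or, for single-exon models, 50% reciprocal overlap.

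CPM used TMM sizes (edgeR 4.0.16, R 4.3.3; factors 0.986 and 1.014). Genes with at least 10 reads over both libraries were tested by a two-sided exact binomial test, leading model shares (at least 10 reads in each library) by Fisher's exact test, both with Benjamini-Hochberg adjustment over all genes at 0.05. A quasi-likelihood test needs a contrast, which 1 group does not give. Log2 ratios add 0.5 reads to each library. Intervals are exact 95% Clopper-Pearson intervals and, like the floor of 3 reads, cover counting error only. The Myl12b test used 32 and 40 reads, without 1 read of a second Myl12b identifier.

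Coding sequences were aligned with Biopython 1.88 (match 1, mismatch -1, gap opening -5, extension -0.5). DESeq2 1.42.0 gave alternative size factors. The remaining steps ran in Python 3.11.15 with pandas 2.3.3, scipy 1.17.1, numpy 2.4.6 and, for figures, matplotlib 3.10.9, and both tests were tested on simulated data.

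The members and lists were chosen with earlier results of these data known. Named were all members, their models with at least 10 reads over both libraries or 5 in each (at most 6 a gene), for each pathway list up to 5 most abundant genes and every called one, and the 5 genes nearest to Myl4 and Myl7 in library ratio. Marker genes are named as examples. Some of the most abundant genes of the kinase and phosphatase list are not reported here.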

Additional observations from a re-analysis of the deposited data

Results flagged for a closer look

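Reads on the strand opposite to Myl3 were set apart because they lie outside the counts used above and exceed the floor of 3 reads. An unannotated single-exon model antisense to Myl3 had 9 reads in replicate 1 (chr9:110764851-110765181) and 8 reads in replicate 2 (chr9:110764851-110765180), within intron 1 of Myl3-201. There is no control sample to compare it with, and whether it is a separate transcript was not tested. Opposite the other members no unannotated model had more than 1 read in a library.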

How the results depend on the processing

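The number of genes called was 156, and it stayed within 1.5 times of that (129 to 216) except for reads of known transcripts only, which gave 102 calls among 5399 genes tested. Of the 9 members 4 were called, or 5 with the genomic class left out. Myl2, Myl4 and Myl7 kept their direction and their call under all 6 alternatives, with log2 ratios of 0.14 to 0.18, -1.47 to -1.17 and -1.26 to -1.199. Myl3 kept its direction but was not called with total mouse reads as library size (adjusted p = 0.262) or with known transcripts only (adjusted p = 0.2). Myl1 was called with total mouse reads (adjusted p = 0.0340), known transcripts only (0.00561) and without the genomic class (0.0383), and its adjusted p ranged up to 0.104; it could not be tested at a minimum of 50 reads. Myl12a, never called, had a log2 ratio of 0.0061 with known transcripts only and 0.0041 without the genomic class, the reverse of its sign above. The summed level of 14903 CPM became 17321 CPM with known transcripts only and 16038 CPM without the genomic class. The members held a larger known share (76.5%) than all mouse reads (66.6% in replicate 1 and 65.1% in replicate 2). Their genomic share was smaller (1.47%, against 8.97% and 7.92%). The summed level was 14904 CPM without replicate 1 and 14901 CPM without replicate 2. The Myl6 exon share of 37.1% was 32.1% in known transcripts only, and 33.9% to 40.5% with 1 replicate left out. Known reads of the members ranged from 74.7% to 78.5% and incomplete matches from 18.0% to 21.8% with 1 replicate left out. No member was called for its leading share under either alternative. No paired analysis was possible because the study holds 1 group. With 2 libraries and no contrast, a call says only that these libraries differ by more than counting error, and Myl1, Myl9 and Myl12b, with under 100 reads each, allow wide intervals.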

Other observations

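Fibroblast and endothelial markers held 1 call each between the libraries. Of 5 fibroblast markers 1 was called, Col3a1, a fibrillar collagen, with 43 reads in replicate 1 and 89 in replicate 2, and the list summed to 2451 CPM in replicate 1 and 2853 CPM in replicate 2. Of 5 endothelial markers 1 was called, Fabp4, a fatty acid carrier that fat cells also make, with 357 reads in replicate 1 and 619 in replicate 2. The endothelial list summed to 751 CPM in replicate 1 and 1079 CPM in replicate 2. Of all genes tested 1.21% were called higher in replicate 2.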
